A study of Mus musculus with 6 samples.

Results

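The Hox cluster microRNAs (miRNAs) examined here are mmu-miR-10a, mmu-miR-10b, mmu-miR-196a, mmu-miR-196b and mmu-miR-615, where mmu stands for mouse. They were chosen by name, with earlier results of these data known. Every mouse-named entry of the deposited tables with 1 of these 5 base names was taken, whatever its arm or length variant. That gave 6 of 1080 entries: 1 each for miR-10a and miR-10b, 2 for miR-196a and 2 for miR-615. No mouse-named entry carried the name miR-196b, so nothing is reported for it. Small RNA had been sequenced from N2A (Neuro2A) cells, a mouse neuroblastoma line whose samples are labelled as neuroblasts from brain. The control group, si-NC, was transfected with a control siRNA, and the other group, si-circCpsf6, with an siRNA against the circular RNA circCpsf6. Both groups received 100 nM with a lipid reagent, and each has 3 libraries. All 6 libraries come from a single cell line, the labels do not say whether replicates were separate cultures, and how far circCpsf6 was lowered was not examined. The p-values therefore measure the spread between these libraries only, which may be technical.

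Hox genes encode transcription factors that set position along the head-to-tail axis, and they sit in 4 clusters whose gene order follows that axis. A few miRNA genes lie between or inside the Hox genes and are often expressed with their neighbours. miR-10 and miR-196 pair with Hox messenger RNAs themselves; the best known case is the cleavage of the Hoxb8 messenger by miR-196. A miRNA hairpin is cut into a 5p and a 3p arm, of which usually one accumulates, and targets are recognised mainly through bases 2 to 8 of the mature strand, the seed.

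The mature sequences (RefSeq, GRCm38.p6; all names matched) are shown with the seed in capitals, because they divide the members into families and explain why some entries are hard to tell apart.
miR-10a-5p: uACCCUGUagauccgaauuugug
miR-10b-5p: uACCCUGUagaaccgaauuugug
miR-196a-5p: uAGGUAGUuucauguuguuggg
miR-196b-5p: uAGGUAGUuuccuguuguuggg
miR-196a-2-3p: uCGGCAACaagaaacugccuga
miR-615-5p: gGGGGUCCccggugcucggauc
miR-615-3p: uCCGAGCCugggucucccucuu

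miR-10a-5p and miR-10b-5p share a seed and differ at 1 base, U12A, counted from the 5′ end of miR-10a. miR-196a-5p and miR-196b-5p likewise share a seed and differ at 1 base, A12C, counted from the 5′ end of miR-196a. How the authors assigned reads between such near-identical miRNAs is not given in the sources used here, so the split within each pair is uncertain. Among 1679 mature mouse miRNAs in the reference table, no other one has either of these seeds at bases 2 to 8. Both arms of miR-615 have a seed of their own. The miR-615 arms are also rich in G and C, at 77.3% for the 5p arm and 63.6% for the 3p arm, against a median of 52.2% over the reference, whereas miR-10a-5p and miR-10b-5p stand at 43.5% and miR-196a-5p at 40.9%.

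The 7 bases of the miR-196 seed, AGGUAGU, also occur in let-7, 1 base further from the 5′ end. The shared run, at bases 3 to 9 of let-7a-5p, is capitalised to show how far it overlaps the let-7 seed.
miR-196a-5p: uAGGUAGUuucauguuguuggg
let-7a-5p: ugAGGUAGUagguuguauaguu
AGGUAGU was found somewhere in 13 of the 1679 mature miRNAs (0.774%), among them miR-98 and the let-7 members a, b, c, d, f, g and i.

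The hairpins are placed on GRCm38 by name (GENCODE M21), which is not the mm9 build of the submitters' processing notes. Mir10a lies between genes on chromosome 11 (96317165 to 96317274), 992 bases before Hoxb4. Mir196a-1 lies in the same Hoxb cluster (96265164 to 96265265), between Hoxb13 and Hoxb9 and 6191 bases before Hoxb9. Mir10b lies on chromosome 2 (74726070 to 74726137) in an intron shared by transcripts of Hoxd3 and Hoxd4. Mir196a-2 lies on chromosome 15 (102973350 to 102973434), between Hoxc10 and Hoxc9 and inside an intron of a long Hoxc5 transcript. Mir615 lies in an intron of Hoxc5 on the same chromosome (103014910 to 103015001). Mir196b, which had no entry, overlaps an exon of Hoxa9 on chromosome 6 (52230081 to 52230165, minus strand).

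**Figure D1:**
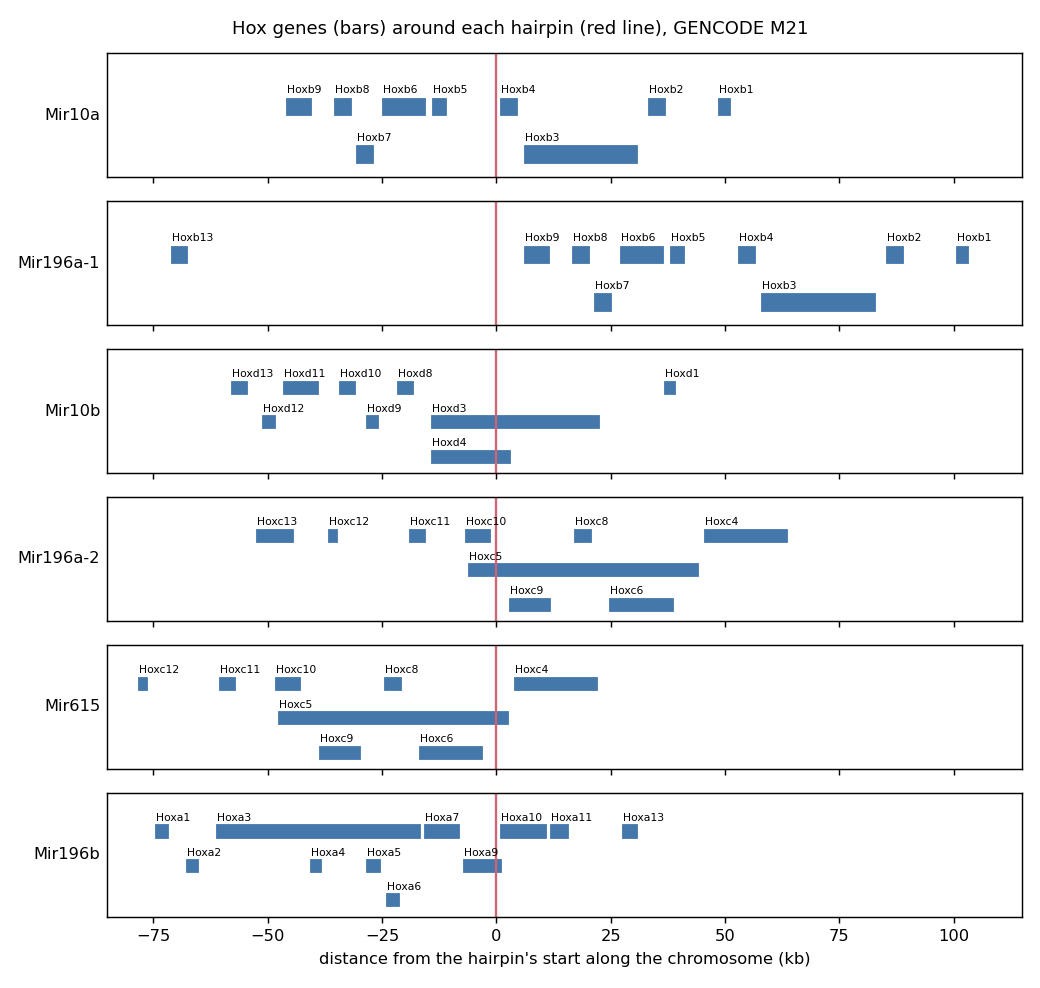
Hox genes (bars, GENCODE M21) around each of the 6 hairpins (red line at 0), by distance in kb along the chromosome from the hairpin's start. Every hairpin lies within a Hox cluster, with Mir10b, Mir196a-2, Mir615 and Mir196b inside an annotated Hox gene.

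The values are the authors' normalized read numbers, and because they were normalized and rounded before deposit the read depth is unknown. They summed to between 2570449 and 3268351 per library. All 6 names of the neuronal and neuroendocrine list, that of the labelled cell, had entries. These summed to between 172468 and 352584 in si-NC and between 290490 and 486986 in si-circCpsf6. Such a sum does not show how much each name contributed. Blood miRNAs summed to at most 17 in any library, with miR-142a and miR-223 not listed, and the liver miRNA miR-122 to at most 5. The miRNAs of striated muscle summed to between 43 and 132. Mesenchymal miRNAs were high in both groups, at 67845 to 107016 in si-NC and 86286 to 109845 in si-circCpsf6. The endothelial miRNA miR-126a was also well represented, at 4061 to 6114 in si-NC and 4321 to 6634 in si-circCpsf6. Epithelial miRNAs, with entries for all 6 names of their list, summed to between 151 and 431 in si-NC and between 7 and 62 in si-circCpsf6.

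In N2A cells the Hox cluster miRNAs formed a strong and a weak tier, with miR-196a-2-3p between them. miR-196a-5p and miR-615-3p were each at 1630 or more in every library, miR-196a-2-3p averaged 107 and 112 in the groups, and miR-615-5p, miR-10a-5p and miR-10b-5p never passed 55. As a share of each library's sum, the 6 entries together averaged 0.234% for si-NC and 0.159% for si-circCpsf6. Their summed value was 7632, 7049 and 5081 in si-NC replicates 1, 2 and 3 and 5066, 4430 and 4513 in si-circCpsf6 replicates 1, 2 and 3. The lowest si-NC library stood just above the highest si-circCpsf6 library. As a description with no test, 5 of the 6 entries had a lower mean in si-circCpsf6, where 50.5% of the 916 entries tested did. The median log2 change of the 6, with 1 added to each value, was -1.02, against 0.086 over all entries tested. Without si-NC replicate 1 the median of the 6 was -0.40. It also depended on the pseudocount, being -0.69 with 5 added and -1.38 with 0.1 added. Because the members were chosen with earlier results known, these figures do not test the set.

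No member passed the test across all entries. By limma on log2(value + 1), 0 of 6 had an adjusted p under 0.05, where 0% of the 916 entries tested did. At an unadjusted p under 0.05 the count was 1 of 6, miR-615-5p, against 6.22% of all entries and 2.95% lower in si-circCpsf6. The 3 si-circCpsf6 libraries all lay below the 3 si-NC libraries for 2 of 6, miR-615-5p and miR-196a-5p. Over all entries tested, 11.7% had groups that did not overlap and 4.91% did so with si-circCpsf6 lower. In the authors' deposited table, the same 2 members had a p under 0.05, at 0.0200 for miR-615-5p and 0.0230 for miR-196a-5p, which that table gave to 3.70% of its 1080 entries, or 1.39% counting only those with a lower si-circCpsf6 mean.

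**Figure D2:**
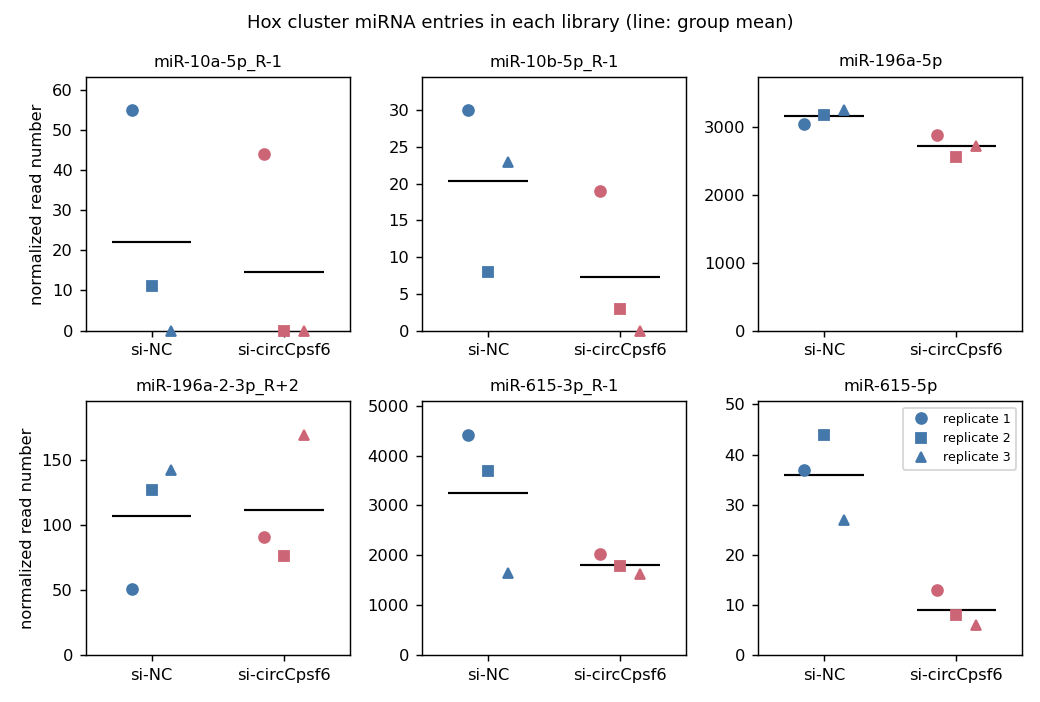
Normalized read number of each Hox cluster miRNA entry in each library (point shape: replicate number; line: group mean; each panel has its own axis from 0). The groups separate for miR-196a-5p and miR-615-5p, and si-NC replicate 3 stands with the si-circCpsf6 libraries for miR-615-3p.

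miR-10a and miR-10b, which mark the more anterior stretch of the Hox clusters by position, were low among the members, ranking 481 and 499 by mean value among 740 mouse-named entries. The entries are miR-10a-5p_R-1 and miR-10b-5p_R-1; the suffix is read here as a form 1 base shorter at the 3′ end, which keeps the seed shown above. The control libraries held mmu-miR-10a-5p at 55, 11 and 0 (replicates 1, 2 and 3), the si-circCpsf6 libraries at 44, 0 and 0. Replicate 1 of each group held nearly all of it, and 3 of the 6 libraries were at 0. Its log2 change was -1.30 (SE 1.93, limma adjusted p = 0.952), and without si-NC replicate 1 it was 0.038, in the opposite direction. Without si-NC replicate 3 or si-circCpsf6 replicate 1 it was -2.87 and -3.13, and without si-circCpsf6 replicate 2 or 3 it was -0.38.

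For mmu-miR-10b-5p the control libraries stood at 30, 8 and 23 and the si-circCpsf6 libraries at 19, 3 and 0. The groups overlapped, since si-circCpsf6 replicate 1 exceeded si-NC replicate 2. The control mean was 20.3 ± 11.2 and the si-circCpsf6 mean 7.33 ± 10.2 (± SD over 3 libraries, as everywhere below), and the log2 change was -2.13 (SE 1.25, limma adjusted p = 0.735). Because a library at 0 weighs heavily on a log scale, that change depended on the pseudocount, being -1.24 with 5 added and -3.30 with 0.1 added. It also depended on single libraries, at -1.08 without si-circCpsf6 replicate 3 and -3.24 without si-circCpsf6 replicate 1, and it was -1.18 with weights per library. The ratio of miR-10a-5p to miR-10b-5p gave no steady order between the pair: miR-10a was the higher in si-NC replicates 1 and 2 and si-circCpsf6 replicate 1, miR-10b in si-NC replicate 3 and si-circCpsf6 replicate 2, and both were at 0 in si-circCpsf6 replicate 3. On the log2 scale that ratio differed by 0.83 between the groups (two-sided exact permutation p = 0.8, or 0.8 adjusted over the 3 ratios compared; 3 against 3 libraries cannot give less than 0.1), and leaving out si-NC replicate 3 turned it to -0.91.

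The low miR-10 values contrast with its sequence relatives miR-99a, miR-99b and miR-100, which lie outside the Hox clusters. Their 5p arms carry the same core shifted by 1 base, shown in capitals, and lack a base within the miR-10 seed.
miR-10a-5p: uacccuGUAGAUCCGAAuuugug
miR-100-5p: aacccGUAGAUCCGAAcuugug
miR-99a-5p: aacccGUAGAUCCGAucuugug
miR-10b-5p: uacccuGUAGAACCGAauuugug
miR-99b-5p: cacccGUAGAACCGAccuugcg

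The common core is 11 bases between miR-10a and miR-100, 10 between miR-10a and miR-99a, and 10 between miR-10b and miR-99b. miR-99b-5p was among the most abundant entries, with a control mean of 66597 ± 23824 and an si-circCpsf6 mean of 60070 ± 8786. miR-100-5p was at 2021 ± 344 and 2159 ± 355. miR-99a-5p was at 1986 ± 258 and 1793 ± 416. The lowest library of any of these 3 entries was at 1402, far above the highest miR-10 value of 55. Of the 5 listed entries of miR-99a, miR-99b and miR-100, 0 had an adjusted and 0 an unadjusted limma p under 0.05, 2 were lower and 3 higher in si-circCpsf6, and the groups overlapped for each. Their median log2 change was 0.095.

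**Figure D3:**
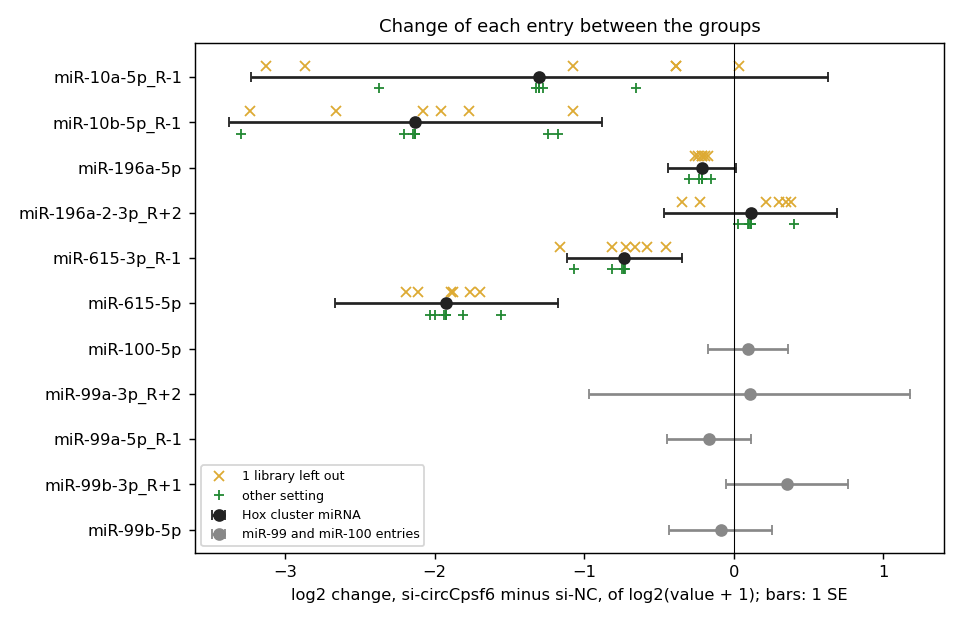
Log2 change of log2(value + 1), si-circCpsf6 minus si-NC, for the 6 Hox cluster miRNA entries (black) and the 5 miR-99 and miR-100 entries (grey), with bars of 1 SE. Crosses are the change with 1 library left out and plus signs the change under another setting. The estimates of the miR-615 entries, miR-196a-5p and miR-10b-5p stay below 0 throughout, although the bar of miR-196a-5p reaches above it. Those of miR-10a-5p and miR-196a-2-3p cross 0.

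miR-196a is a miRNA of the more posterior Hox positions and a repressor of Hoxb8, and the values of its 5p arm varied little between libraries. The control libraries held mmu-miR-196a-5p at 3038, 3172 and 3240, the si-circCpsf6 libraries at 2880, 2559 and 2707. Each si-NC library stood above each si-circCpsf6 library, although the gap was small. The means were 3150 ± 103 and 2715 ± 161, so that si-circCpsf6 stood at 86.2% of si-NC, and it ranked 121 by mean value among 740 mouse-named entries. The log2 change was -0.22 (SE 0.23, limma adjusted p = 0.904, unadjusted p = 0.370). It was negative under all 16 alternatives, from -0.30 with libraries rescaled to the same total to -0.15 with weights per library.

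The 5p sequence is the same from Mir196a-1 and Mir196a-2, so its value cannot be divided between the Hoxb and Hoxc loci. The 3p arms differ, and the listed 3p entry, miR-196a-2-3p_R+2, names the Hoxc copy; no entry named miR-196a-1-3p was listed. The hairpin of Mir196a-2 is printed with its arms in capitals to show where both entries can come from.
Mir196a-2: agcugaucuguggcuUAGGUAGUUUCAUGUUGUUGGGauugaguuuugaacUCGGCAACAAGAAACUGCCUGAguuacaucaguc

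For miR-196a-2-3p the control libraries gave 51, 127 and 143, and those of si-circCpsf6 gave 91, 76 and 170. The groups overlapped, and the lowest library was of si-NC and the highest of si-circCpsf6. The means were 107 ± 49.2 and 112 ± 50.5, with a log2 change of 0.11 (SE 0.58, limma adjusted p = 0.992). Leaving out si-NC replicate 1 or si-circCpsf6 replicate 3 turned its sign, to -0.35 and -0.23. The log2 ratio of miR-196a-5p to this 3p arm averaged 5.0 ± 0.76 over the control libraries and 4.67 ± 0.59 over the si-circCpsf6 libraries, a difference of -0.33 (two-sided exact permutation p = 0.6, or 0.8 adjusted over the 3 ratios). The 5p entry was thus higher than this 3p entry in every library, and the ratio did not differ beyond the spread between libraries. Because the 5p value may include Mir196a-1 as well, the ratio is not that of the arms of Mir196a-2 alone.

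miR-615, carried in an intron of Hoxc5, had the largest differences between the groups among the members listed above 0 in every library. Its main product was the 3p arm. Control replicates 1, 2 and 3 held mmu-miR-615-3p (entry miR-615-3p_R-1) at 4421, 3687 and 1648, and the si-circCpsf6 libraries at 2019, 1784 and 1630. Replicates 1 and 2 of si-NC stood above all other libraries, and si-NC replicate 3 fell within the si-circCpsf6 range. The means were 3252 ± 1437 and 1811 ± 196, si-circCpsf6 standing at 55.7% of si-NC. The log2 change was -0.73 (SE 0.38, limma adjusted p = 0.735, unadjusted p = 0.0926). Without si-NC replicate 3 it was -1.16 and without si-NC replicate 1 it was -0.45. It passed under 1 alternative alone, weights per library (-1.07, adjusted p = 0.0289, the range over its alternatives being 0.0289 to 0.979).

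For miR-615-5p, the minor arm, the control libraries gave 37, 44 and 27, and those of si-circCpsf6 gave 13, 8 and 6. Every si-NC library was at least at 27 and every si-circCpsf6 library at most at 13. The means were 36.0 ± 8.54 and 9.0 ± 3.61, so that si-circCpsf6 stood at 25.0% of si-NC. The log2 change was -1.92 (SE 0.75, limma adjusted p = 0.609, unadjusted p = 0.0319). These are low values, ranked 466 among 740 mouse-named entries. The unadjusted p was above 0.05 without si-NC replicate 1 (0.0814), si-NC replicate 2 (0.1), si-circCpsf6 replicate 2 (0.0747) or si-circCpsf6 replicate 3 (0.0536).

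The 5p arm of miR-615 was also lower relative to its 3p arm. It stood at 0.837%, 1.19% and 1.64% of the 3p value in si-NC replicates 1, 2 and 3 and at 0.644%, 0.448% and 0.368% in si-circCpsf6 replicates 1, 2 and 3. All 3 si-NC libraries lay above all 3 si-circCpsf6 libraries, in a ratio that scaling of a library cannot change. The log2 ratio was taken with 1 added to each value, so scaling can shift it. It averaged -6.37 ± 0.49 over the control libraries and -7.56 ± 0.35 over the si-circCpsf6 libraries. The difference was -1.19 (two-sided exact permutation p = 0.1, the smallest that 3 against 3 libraries can give, or 0.3 adjusted over the 3 ratios compared). That difference depended on the pseudocount, being -0.83 with 5 added and -1.30 with 0.1 added. Of 195 mouse hairpins with both arms tested, 7.69% had arm ratios whose groups did not overlap, and 5.13% did so with the lower ratio in si-circCpsf6.

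**Figure D4:**
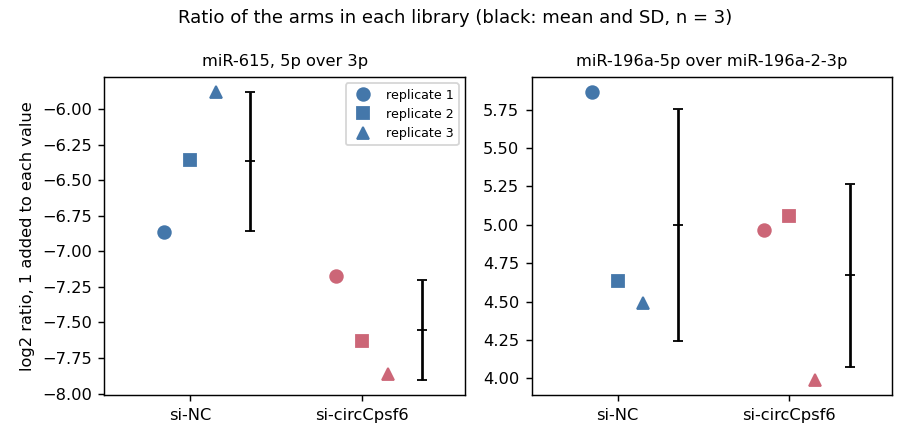
Log2 ratio of the arms of miR-615 (left) and of miR-196a-5p to miR-196a-2-3p (right) in each library, with 1 added to each value. Black marks are the mean and SD of 3 libraries. The miR-196a-5p value may include both Mir196a hairpins. The miR-615 ratio lies between -6.86 and -5.88 in si-NC and between -7.86 and -7.17 in si-circCpsf6, while the miR-196a ratios overlap.

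By level, miR-615-3p and miR-196a-5p could not be ordered in si-NC, where the libraries of miR-615-3p spread on both sides of miR-196a-5p. In si-circCpsf6 every miR-196a-5p library (2559 to 2880) stood above every miR-615-3p library (1630 to 2019). miR-196a-2-3p came next in both groups, clear of the weaker entries except that si-NC replicate 1 held it at 51 and miR-10a-5p at 55. The order of miR-615-5p, miR-10a-5p and miR-10b-5p was not separable beyond their spread in either group.

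The miRNAs with profiles closest to the 2 abundant members were found by the root mean square difference of log2(value + 1), centred on each entry's mean, over the 6 libraries and among 343 other mouse-named entries with a mean of 100 or more. For miR-196a-5p these were miR-361-5p (0.085), let-7c-5p (0.10) and miR-218-2-3p (0.11), against a median of 0.46. let-7c-5p had 44183, 41163 and 39676 as its control values and 36203, 35816 and 39830 as its si-circCpsf6 values, a flat profile like that of miR-196a-5p. For miR-615-3p they were miR-1839-5p (0.20), miR-146b-5p (0.24) and miR-152-5p (0.24), against a median of 0.72. miR-1839-5p had 3344, 3596 and 1729 as its control values and 1834, 1857 and 1235 as its si-circCpsf6 values, so it too was high in si-NC replicates 1 and 2 and lower in si-NC replicate 3.

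Other groups of entries also had lower means in si-circCpsf6. In the list of records overlapping ribosomal, transfer or small nucleolar RNA or a ribosomal protein exon, taken as a sign of RNA quality and including miR-1839, 9 of 10 entries had lower means in si-circCpsf6, and their sum ran from 9474 to 15798 in si-NC and from 7286 to 10780 in si-circCpsf6. Epithelial miRNAs had 5 of 6 entries lower, with sums of 151 to 431 in si-NC and 7 to 62 in si-circCpsf6. Striated muscle had 2 of 2 entries lower. Blood was split, with 1 of 2 lower. Over all entries tested, 50.5% had a lower mean. Other lists went the other way, with 0 of 7 mesenchymal, 0 of 2 endothelial and 4 of 13 neuronal and neuroendocrine entries lower. The part of these lists in the miR-615 and miR-196a differences was not tested.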

How the data were processed

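Small RNA from 6 N2A libraries (3 si-NC, 3 si-circCpsf6, grouped by their titles) was analysed. Per the file headers the authors deposited 1 normalized read number per entry and library, rounded to whole numbers and therefore treated as a score, not as counts; the table of group comparisons they deposited also holds an unadjusted p-value per entry. Per the submitters' processing notes the build was mm9; the aligner and the methods of counting and normalization are not given in those sources. Of 178 entries whose values repeated an earlier entry, 34 were merged as copies (above 0 in 3 or more libraries, or differing in name by the suffix only), leaving 1046, of which 916 had a mean of 1 or more and were tested, all 6 members among them. limma 3.58.1 (trended variance, R 4.3.3) was run on log2(value + 1) with no covariate besides the group. The p-values were adjusted over all 916 (Benjamini-Hochberg, threshold 0.05). The step was also run on simulated data, with changes larger than those of the members in the main fit. That run does not show how well changes of the members' size are found. A log2 change of log2(value + 1) understates changes of low entries, except that a library at 0 can enlarge it. Arm ratios were compared by two-sided exact permutation over the libraries in Python 3.11.15. The members and lists were chosen with earlier results of these data known. By rule, every member entry was described, with the miR-99 and miR-100 entries as relatives and, as the closest profiles, the 3 nearest entries to each member name with a mean of 100 or more. Alternatives were pseudocounts of 0.1 and 5, other filters, rescaling, a replicate block, robust variance, library weights, identical rows kept apart and each library left out; rescaling by median ratios was chosen after seeing the data. Removal of the trend on GC content, also tried after seeing the data, is void and gives no value here, because a reference sequence was matched for 542 of the 916 entries tested (59.2%); among mouse-named entries the share was 80.1%, reached only after the naming of merged rows had been changed with the shortfall known.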

Additional observations from a re-analysis of the deposited data

How the results depend on the processing

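The direction of miR-10b-5p, miR-196a-5p, miR-615-3p and miR-615-5p, and that of the miR-615 arm ratio, held under every alternative run. With 1 library left out, the log2 change of miR-10a-5p ran from -3.13 to 0.038 and that of miR-196a-2-3p from -0.35 to 0.39. The ratio difference of miR-196a-5p to miR-196a-2-3p ran from -0.58 to 0.11, and that of miR-10a to miR-10b from -0.91 to 1.81. For the miR-615 arms the ratio difference ran from -1.44 to -0.95. The median change of the 6 members ran from -1.56 to -0.40. Among all entries tested, 0 to 4 entries passed and 45 to 127 had an unadjusted p under 0.05, the highest counts in both cases without si-NC replicate 3, and 156 to 290 entries had groups that did not overlap, which fewer libraries make easier. With weights per library 31 entries passed, and 210 had an unadjusted p under 0.05. The replicate number as a block gave 87 such entries against 57 without it, with 0 past adjustment in both fits. Same-numbered libraries deviated together with correlations across entries of 0.047, 0.479 and 0.40 for numbers 1, 2 and 3, and not every library correlated best with its own number, so the numbers are not taken as pairs. Read depth is unknown, which limits the miR-10 and miR-615-5p values most.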

Other observations

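Entries named after another species carried a miR-196 name as well. The control libraries held dno-miR-196c-5p at 5, 6 and 0 (replicates 1, 2 and 3), the si-circCpsf6 libraries at 3, 3 and 0. Its longer variant, dno-miR-196c-5p_R+1, stood at 5, 5 and 0 in the control libraries and at 0 in each si-circCpsf6 library. Both are near the bottom of the table, and both were at 0 in si-NC replicate 3.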
